A study of Mus musculus with 14 samples.

Results

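The colon reclaims salt and water from its contents and secretes bicarbonate and fluid, and 10 genes that carry out these tasks were followed across 14 mouse colons. They were the 3 subunits of the epithelial sodium channel (Scnn1a, Scnn1b and Scnn1g), the sodium-proton exchanger Slc9a3, the chloride-bicarbonate exchanger Slc26a3, the carbonic anhydrases Car1 and Car4, the proton-potassium pump Atp12a, the water channel Aqp8 and the chloride channel Cftr. The genes were chosen by name, with earlier results of these data known, and array probes were assigned to them through the accession printed for each probe. This gave 13 probes for the 10 genes, of 15540 genes with a tested probe on the array, and all 13 probes passed the filter on dim signals. Scnn1a, Slc9a3 and Cftr had 2 probes each, and the brighter probe of each pair is the one reported unless stated.

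All mice were female C57BL/6 mice aged 4 to 6 months on a chow diet, and each array held colon RNA of a single mouse, going by the design the submitters describe. Flox mice carry loxP-flanked alleles of Nr3c1, the gene of the glucocorticoid receptor (GR), and GR iKO mice carry the same alleles with a cre transgene driven by the Villin promoter, which is active in intestinal epithelium, so the receptor remains in stroma, muscle and immune cells. Mice of each genotype drank regular water (n = 4 per genotype) or water with 2.5% dextran sulfate sodium (DSS), a polymer used to induce colitis through damage to the epithelium, over 7 days (n = 3 per genotype). Because the whole colon was measured, a lower level of a gene can come from fewer cells of a type or from less RNA per cell, and these cannot be told apart here.

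Absorption in the colon runs along the surface epithelium. Sodium enters either through the epithelial sodium channel, which needs its alpha, beta and gamma subunits for full activity and is driven by aldosterone in the distal colon, or through Slc9a3 working side by side with Slc26a3, which takes up sodium and chloride in exchange for protons and bicarbonate. Carbonic anhydrases supply those protons and bicarbonate, Car1 inside the colonocyte and Car4 on its outer surface, and Atp12a pumps protons out while taking potassium in. Cftr runs the opposite way: it releases chloride and bicarbonate into the lumen, mostly in crypts, and water follows. Corticosteroids are known stimulators of the sodium channel, which is why the loss of an epithelial corticosteroid receptor is of interest for this group of genes.

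RefSeq (GRCm38.p6) promoter sequences were found for 7 of the 10 genes, namely Scnn1b, Scnn1g, Slc9a3, Slc26a3, Car4, Aqp8 and Cftr. In the 250 bases upstream of the start, searched on both strands, none of the 7 held the glucocorticoid response element consensus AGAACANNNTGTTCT, and none held its half-site AGAACA, which is the first 6 letters of the consensus. Over 32851 promoters of the same length the consensus occurred in 0.00913% and the half-site in 16.1%. The Cdx core TTTATG occurred in Scnn1g alone of the 7, starting 7 bases before the start, against 10.8% of all promoters, and the TATA box TATAAA occurred in Slc26a3 alone, 30 bases before the start, against 12.4%. A match or its absence describes the letters of this window only. The start used here is not always the first base of the annotated gene. The Slc26a3 window (31437969 to 31438218) lies inside its gene, which spans 31433142 to 31473922. The Slc9a3 window (74121163 to 74121412) also lies inside its gene, which spans 74086255 to 74169442. The Scnn1g window ends at 121734478, past the gene start at 121734420, so its Cdx match lies inside the annotated gene. The windows of Scnn1b and Cftr, which DSS lowered in at least Flox mice, and of Aqp8, which it lowered in GR iKO mice, are shown as examples from the sodium, chloride and water routes. These printed windows lie wholly upstream of the annotated gene. They run 5′ to 3′ and hold no capitals, which would mark a motif match.
Scnn1b (chr7:121864788-121865037, + strand): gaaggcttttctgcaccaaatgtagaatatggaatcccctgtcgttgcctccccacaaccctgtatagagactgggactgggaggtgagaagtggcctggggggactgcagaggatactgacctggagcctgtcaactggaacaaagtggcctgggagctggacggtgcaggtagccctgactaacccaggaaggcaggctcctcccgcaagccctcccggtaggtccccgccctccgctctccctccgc
Aqp8 (chr7:123462044-123462293, + strand): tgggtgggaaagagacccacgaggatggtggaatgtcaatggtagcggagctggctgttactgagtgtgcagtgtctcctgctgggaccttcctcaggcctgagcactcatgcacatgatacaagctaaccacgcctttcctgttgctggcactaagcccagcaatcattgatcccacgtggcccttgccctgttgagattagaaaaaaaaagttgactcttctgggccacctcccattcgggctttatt
Cftr (chr6:18170437-18170686, + strand): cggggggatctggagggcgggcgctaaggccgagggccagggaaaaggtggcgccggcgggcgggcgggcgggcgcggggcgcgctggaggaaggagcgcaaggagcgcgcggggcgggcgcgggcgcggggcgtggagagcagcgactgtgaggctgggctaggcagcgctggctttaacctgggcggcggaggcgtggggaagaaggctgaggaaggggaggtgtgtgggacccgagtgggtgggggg
The GC content of the 3 windows was 60.8%, 52.4% and 76.4%. Scnn1g and Scnn1b are neighbours on chromosome 7, where Scnn1g spans 121734420 to 121768482 and Scnn1b spans 121865038 to 121918728 in the same annotation, and Aqp8 starts further along the same chromosome at 123462294.

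Levels are given on a log2 scale on which 0 is the 75th percentile of the processed intensities of that array. Levels of different genes come from different probes and are not set against each other. The 75th percentile itself lay between 261.9 and 1003 intensity units, lowest on Flox DSS replicate 4, and the share of probes well above background ran from 62.6% to 71.3%. The targeted gene Nr3c1 was at 1.05, 1.17, 1.18 and 1.38 in Flox and 0.36, 0.57, 0.44 and 0.19 in GR iKO mice on water, without overlap (log2 difference −0.80 ± 0.10 SE, adjusted p = 0.00911, limma). On DSS, Nr3c1 was at 1.27, 1.46 and 1.07 against 0.48, 0.45 and 0.37, again without overlap, at −0.83 with an adjusted p of 0.0922 (0.38 under scaling to spike-in transcripts). Where its probe lies relative to the deleted part of the gene was not determined here.

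DSS lowered 6 of the 10 transport genes in Flox mice and 4 of the 10 in GR iKO mice, and raised none in either. Those called in Flox were the 3 sodium channel subunits, Slc26a3, Atp12a and Cftr. Those called in GR iKO were Scnn1a, Slc26a3, Aqp8 and Cftr, so that 3 genes were called in both genotypes, 7 in at least 1 and 3 (Slc9a3, Car1 and Car4) in neither. A gene was called at an adjusted p under 0.05 (limma, Benjamini-Hochberg over all 29523 probes tested). DSS changed much of the array: 47.2% of all probes were called in Flox and 25.4% were called lower, while in GR iKO 38.8% were called and 19.7% were called lower. Probes called higher made up 21.8% and 19.0%. Directions are relative to that percentile, and scaling to spike-in transcripts moved the median of all probes to −2.40 in Flox and −0.95 in GR iKO. The median log2 difference over the 10 genes was −1.39 in Flox, where the median of all probes was −0.09, and −1.24 in GR iKO, where that of all probes was −0.02. The groups did not overlap for 5 of the 10 genes in Flox and 4 in GR iKO, against 31.5% and 23.7% of all probes with every DSS array below every water array.

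**Figure D1:**
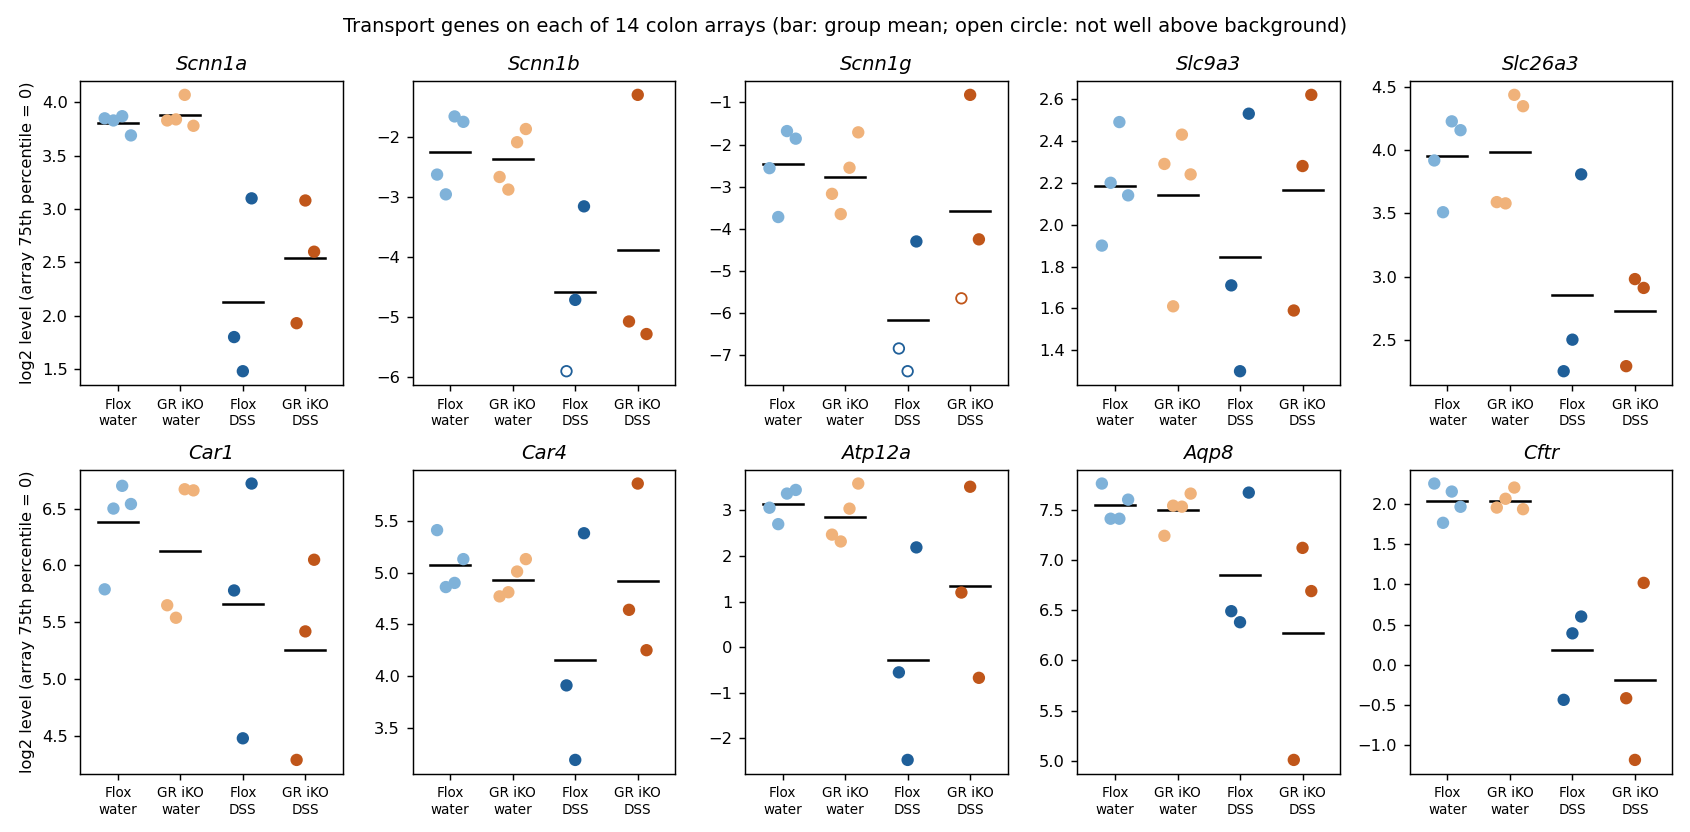
Level of each transport gene on each of the 14 arrays (y axis: log2 level, 0 at the 75th percentile of the array; x axis: the 4 groups; bars: group means; open circles: spots not well above background). Scnn1a and Cftr on DSS lie below all water arrays in both genotypes, while Slc9a3 and Car1 overlap; each panel has its own y scale.

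Scnn1a encodes the alpha subunit, without which the sodium channel carries almost no current. Its level on water was tight, at 3.85, 3.83, 3.87 and 3.69 in Flox and 3.83, 3.84, 4.07 and 3.78 in GR iKO. On DSS it was 1.80, 1.48 and 3.10 in Flox and 1.93, 3.08 and 2.60 in GR iKO, so that every DSS array lay under every water array. The fall was 1.68 ± 0.29 (SE) log2 units in Flox (95% interval −2.32 to −1.04, adjusted p = 0.000635, limma), which left 31.2% of the water level, and 1.35 ± 0.29 in GR iKO (−1.98 to −0.71, adjusted p = 0.00359), which left 39.3%. An exact two-sided permutation test of the arrays gave p = 0.0286 in each genotype, the smallest it allows for 3 against 4. The call held under every alternative fit and with any single array left out. A dimmer second Scnn1a probe did not stand well above background in any of the 3 Flox mice on DSS, where it was at least 3.01-fold lower than on water (adjusted p = 0.000946, limma; measured means −5.34 on DSS and −3.73 on water), the bound being set by the lowest signal that counts as above background.

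Scnn1g encodes the gamma subunit, which proteases cleave to open the channel fully. On water it was at −2.56, −3.72, −1.68 and −1.86 in Flox and at −3.17, −3.65, −2.55 and −1.71 in GR iKO. On DSS it dropped to −6.84, −7.38 and −4.30 in Flox, where 1 of 3 arrays was well above background, a difference of −3.72 ± 1.06 (95% interval −6.03 to −1.41, adjusted p = 0.0125, limma). In GR iKO on DSS the 3 arrays spread widely, at −5.65, −0.82 and −4.25, with 2 of 3 above background. GR iKO DSS replicate 3 was thus the highest of all 14 arrays for Scnn1g, while the other two lay below all water arrays, and the mean difference of −0.80 did not pass the test (−3.11 to 1.51, adjusted p = 0.583). Without that array the difference in GR iKO was −2.18 (adjusted p = 0.129) and without GR iKO DSS replicate 1 it was 0.23. The Flox call was lost without Flox DSS replicate 1 (−3.39, adjusted p = 0.0790) or 2 (−3.12, adjusted p = 0.0904).

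Scnn1b, the beta subunit, shared with the gamma subunit the highest DSS array of each genotype, though not the lowest. Its levels on water were −2.62, −2.95, −1.65 and −1.74 in Flox and −2.66, −2.87, −2.08 and −1.86 in GR iKO. On DSS they were −5.90, −4.71 and −3.15 in Flox, with 2 of 3 above background, and −5.07, −1.29 and −5.28 in GR iKO, where replicate 3 was again the highest of all 14 arrays. Scnn1b fell by 2.34 ± 0.83 in Flox (95% interval −4.15 to −0.54, adjusted p = 0.0347, limma), whereas the difference of −1.51 in GR iKO did not pass (−3.32 to 0.29, adjusted p = 0.171). Without GR iKO DSS replicate 3 the latter was −2.81 (adjusted p = 0.0119). The Flox call was lost without Flox DSS replicate 1 (−1.69, adjusted p = 0.218) or 2 (−2.28, adjusted p = 0.116), and without Flox water replicate 3 (−2.15, adjusted p = 0.0604) or 4 (−2.18, adjusted p = 0.0595). With a different background correction (normexp) both dim subunits shrank in Flox, to −0.72 for Scnn1b (adjusted p = 0.219) and −0.79 for Scnn1g (adjusted p = 0.290), and under scaling to pan-epithelial genes Scnn1b was at −1.94 (adjusted p = 0.0850).

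Slc9a3, the exchanger that brings in sodium at the surface, was called in neither genotype. Its levels were 1.90, 2.20, 2.49 and 2.14 in Flox and 2.29, 1.61, 2.43 and 2.24 in GR iKO on water, and 1.71, 1.3 and 2.53 in Flox and 1.59, 2.28 and 2.62 in GR iKO on DSS. The DSS difference was −0.34 in Flox (95% interval −1.08 to 0.41, adjusted p = 0.448, limma) and 0.02 in GR iKO (−0.72 to 0.77, adjusted p = 0.966). On this scale a fall of more than 1.08 log2 units lay outside the interval in Flox and one of more than 0.72 in GR iKO. The second Slc9a3 probe gave −0.15 and −0.12. Under scaling to spike-in transcripts Slc9a3 was at −2.65 in Flox (adjusted p = 6.69e-05, limma) and −0.90 in GR iKO (adjusted p = 0.116). The medians of all probes there were −2.40 and −0.95. Of 12 alternative fits, 2 called Slc9a3 in Flox, namely spike-in scaling and quality weights per array.

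Slc26a3, the exchanger that takes up chloride against bicarbonate and whose loss in people causes chloride-losing diarrhoea, fell in both genotypes. On water it lay at 3.92, 3.51, 4.23 and 4.16 in Flox and 3.59, 3.58, 4.44 and 4.35 in GR iKO. On DSS it was 2.25, 2.50 and 3.81 in Flox, where replicate 4 stayed within the water range, and 2.29, 2.98 and 2.91 in GR iKO, all below the water arrays. The difference was −1.10 ± 0.42 in Flox (95% interval −2.01 to −0.19, adjusted p = 0.0468, limma) and −1.26 ± 0.42 in GR iKO (−2.17 to −0.36, adjusted p = 0.0306), which left 46.7% and 41.6% of the water level. Both calls were close to the threshold. With 1 array left out, the Flox call was lost (log2 difference and adjusted p in parentheses) without Flox DSS replicate 1 (−0.80, 0.271), Flox DSS replicate 2 (−0.92, 0.207), Flox water replicate 1 (−1.11, 0.0615), Flox water replicate 3 (−1.01, 0.0745), Flox water replicate 4 (−1.03, 0.0764) or GR iKO DSS replicate 4 (−1.10, 0.0614). The GR iKO call was lost without GR iKO DSS replicate 1 (−1.05, 0.121), GR iKO DSS replicate 3 (−1.39, 0.0507), GR iKO DSS replicate 4 (−1.36, 0.0733) or GR iKO water replicate 4 (−1.15, 0.0568). The Flox call was also lost with no filter on dim probes (−1.10, 0.0502) and under scaling to pan-epithelial genes (−0.69, 0.191), and the GR iKO call when only the arrays compared were fitted (−1.26, 0.0603).

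Car1 and Car4, the carbonic anhydrases of the colonocyte, were called in neither genotype. Car1 was at 5.79, 6.50, 6.70 and 6.54 in Flox and 5.65, 5.54, 6.67 and 6.66 in GR iKO on water, and at 5.78, 4.48 and 6.72 in Flox and 4.29, 5.42 and 6.05 in GR iKO on DSS. Its differences were −0.72 in Flox (95% interval −1.97 to 0.53, adjusted p = 0.326, limma) and −0.88 in GR iKO (−2.13 to 0.38, adjusted p = 0.254). Car4 was at 5.41, 4.86, 4.90 and 5.13 in Flox and 4.77, 4.81, 5.01 and 5.13 in GR iKO on water, and at 3.91, 3.19 and 5.38 in Flox and 4.64, 5.86 and 4.25 in GR iKO on DSS. In each genotype 2 DSS arrays were below the water arrays and 1 was within or above them. The Car4 difference was −0.91 in Flox (−1.80 to −0.02, adjusted p = 0.0855), −1.52 without Flox DSS replicate 4 (adjusted p = 0.00691), and −0.01 in GR iKO (−0.90 to 0.88, adjusted p = 0.985). Of 12 alternative fits, 3 called Car4 in Flox, namely normexp (−1.01, adjusted p = 0.0341, limma), quality weights per array and spike-in scaling. Quality weights and spike-in scaling also called Car1 in Flox, and spike-in scaling called it in GR iKO (−1.80, adjusted p = 0.0418).

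Atp12a, the colonic proton-potassium pump that saves potassium, varied strongly between DSS arrays. It was at 3.06, 2.70, 3.37 and 3.45 in Flox and 2.47, 2.32, 3.04 and 3.59 in GR iKO on water. On DSS it was −0.55, −2.47 and 2.19 in Flox and 1.20, 3.52 and −0.67 in GR iKO, so that single DSS arrays differed by up to 25.3-fold within a genotype. Atp12a fell by 3.42 ± 0.90 in Flox (95% interval −5.39 to −1.46, adjusted p = 0.00816, limma), to 9.32% of the water level, and the call was lost without Flox DSS replicate 2 (−2.33, adjusted p = 0.0826). In GR iKO the difference was −1.50 (−3.47 to 0.46, adjusted p = 0.212), −2.59 without replicate 3 (adjusted p = 0.0550) and −0.50 without replicate 4 (adjusted p = 0.752).

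Aqp8, the main water channel of surface colonocytes, was the gene called in GR iKO and not in Flox. Its levels on water were 7.76, 7.41, 7.41 and 7.60 in Flox and 7.24, 7.54, 7.53 and 7.66 in GR iKO. On DSS they were 6.49, 6.38 and 7.67 in Flox and 5.01, 7.12 and 6.69 in GR iKO. The difference was −1.22 ± 0.38 in GR iKO (95% interval −2.04 to −0.39, adjusted p = 0.0235, limma), where every DSS array was below the water arrays. It was −0.70 in Flox (−1.53 to 0.13, adjusted p = 0.150), where replicate 4 lay within the water range. The GR iKO call was lost without GR iKO DSS replicate 1 (−0.59, adjusted p = 0.168) and when only the arrays compared were fitted (−1.22, adjusted p = 0.0614). Aqp8 was called in Flox without Flox DSS replicate 4 (−1.11, adjusted p = 0.0459) or without GR iKO DSS replicate 1 (−0.70, adjusted p = 0.0450), which is not in that comparison but shares in the estimate of the spread. It was also called in Flox under quality weights per array and under spike-in scaling (−3.02, adjusted p = 8.42e-06, limma), where the median of all probes was −2.40. The 2 DSS responses differed by −0.52 (interaction, 95% interval −1.69 to 0.65, adjusted p = 0.709), so a difference between genotypes was not shown.

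Cftr, the secretory chloride channel, fell in both genotypes. On water it was at 2.26, 1.77, 2.16 and 1.97 in Flox and 1.96, 2.07, 2.21 and 1.94 in GR iKO. On DSS it was −0.44, 0.39 and 0.60 in Flox and −0.42, −1.19 and 1.02 in GR iKO, all below the water arrays. The fall was 1.86 ± 0.36 in Flox (95% interval −2.65 to −1.07, adjusted p = 0.00133, limma) and 2.24 ± 0.36 in GR iKO (−3.03 to −1.45, adjusted p = 0.000592), which left 27.6% and 21.1% of the water level. The call held under every alternative fit and with any single array left out. A dimmer second Cftr probe gave −1.03 in Flox, with an adjusted p of 0.0986, and −1.35 in GR iKO, with one of 0.0424.

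**Figure D2:**
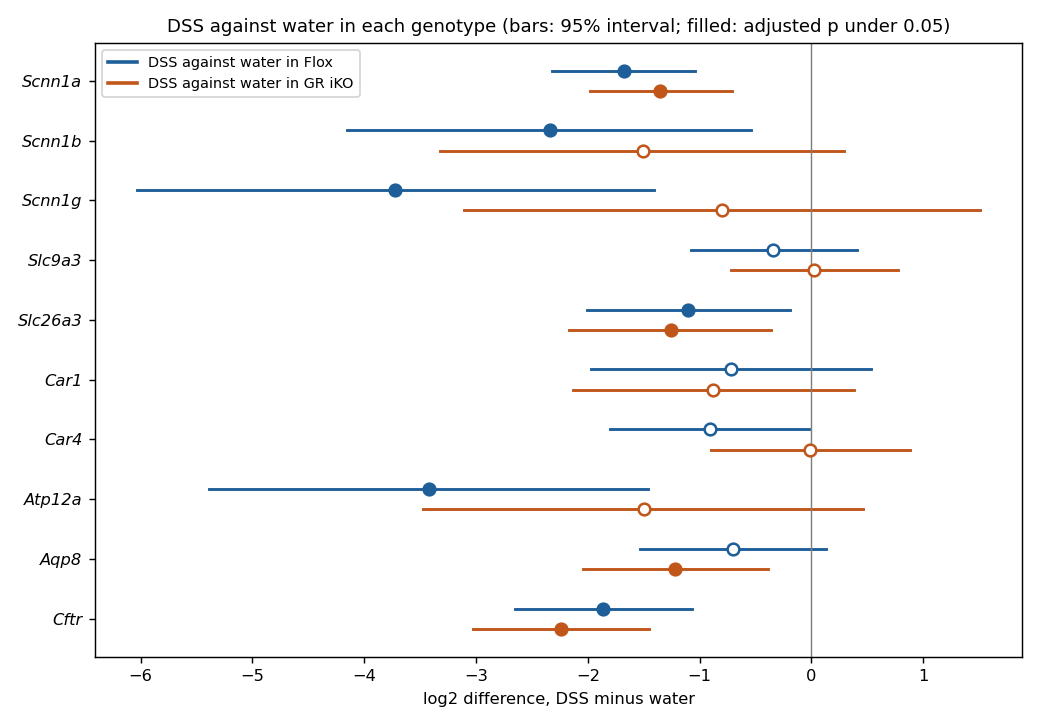
Log2 difference between DSS and water for each transport gene (x axis) in Flox and GR iKO mice, with 95% intervals as bars and filled points for an adjusted p under 0.05. In Flox 6 points are filled and in GR iKO 4; the intervals of Scnn1g and Atp12a are the widest.

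The DSS arrays of a genotype differed widely among themselves. Flox DSS replicate 4 was the highest of the 3 Flox DSS arrays for all 10 genes, with a median difference of −0.42 from the Flox water mean against −1.86 and −1.89 on the other two, and 5 genes (Slc9a3, Slc26a3, Car1, Car4 and Aqp8) were within or above the Flox water range on it. That array also had the lowest 75th percentile of all 14 (261.9), on which levels are centred, and the lowest share above background (62.6%). The part of this in its levels was not tested. GR iKO DSS replicate 3 was the highest of its 3 for 7 genes, at a median of −0.12 against −1.90 and −1.05, and was within or above the water range for Scnn1b, Scnn1g, Slc9a3, Car4 and Atp12a. Cftr did not share in this, since the same array held the lowest Cftr level of all 14. Without Flox DSS replicate 4 the number of genes called in Flox was 8, without replicate 1 it was 3 and without replicate 2 it was 2. Over all probes the same fits called 12905, 9149 and 9724 in Flox, against 13929 with all arrays. In GR iKO the number of genes called was between 2 and 4 with any single array left out, the lowest being without GR iKO DSS replicate 1. That fit called 10017 of all probes in GR iKO, against 11442 with all arrays. Each of the 4 slides held arrays of several groups, and within the 3 slides that held both treatments of a genotype all called genes had the sign of the pooled difference: in Flox from −2.35 to −0.59 for Scnn1a, −3.27 to −1.41 for Scnn1b, −4.28 to −2.45 for Scnn1g, −1.67 to −0.34 for Slc26a3, −5.17 to −1.26 for Atp12a and −2.71 to −1.37 for Cftr, and in GR iKO from −1.90 to −0.99 for Scnn1a, −1.46 to −1.30 for Slc26a3, −2.23 to −0.41 for Aqp8 and −3.40 to −0.92 for Cftr.

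**Figure D3:**
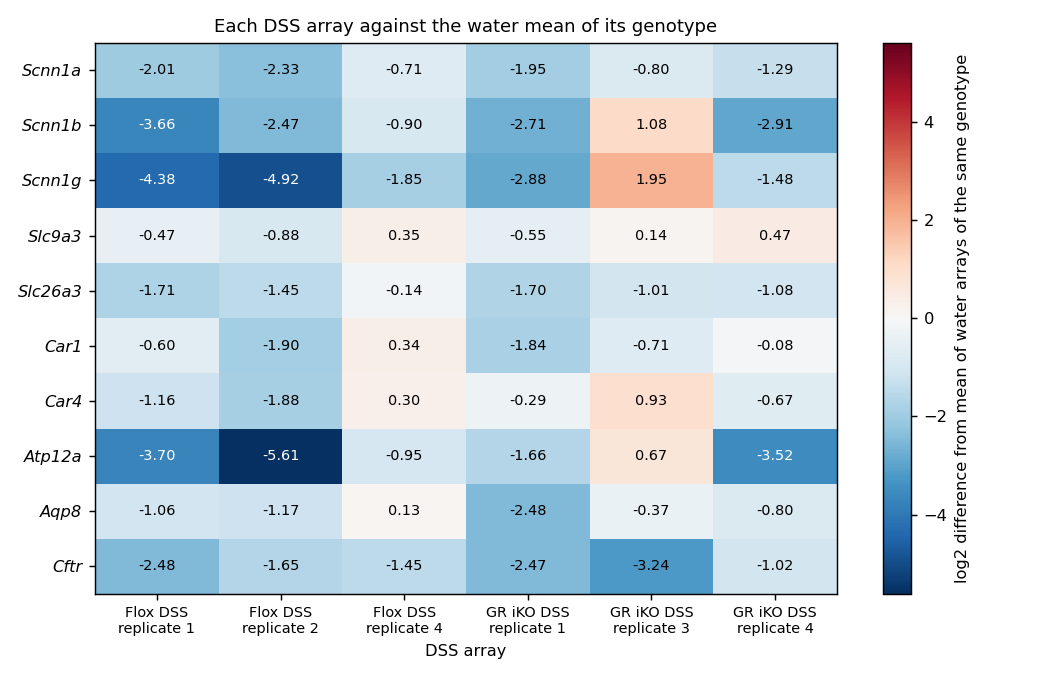
Difference of each DSS array (columns) from the mean of the water arrays of its genotype for each transport gene (rows), as log2 values printed in the cells, blue below and red above 0. Flox DSS replicate 4 is the highest of the 3 Flox DSS arrays for every gene, while GR iKO DSS replicate 3 ranges from −3.24 (Cftr) to 1.95 (Scnn1g).

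Markers of other cell types moved on the same arrays, and their part in the results was not tested. The counts below are of genes called on DSS against water. They stand beside 25.4% of all probes called lower and 21.8% called higher in Flox, and 19.7% and 19.0% in GR iKO. Pan-epithelial genes (11, such as Epcam and Krt8) had a median DSS difference of −0.43 in Flox, with 4 lower and 1 higher, and 0.10 in GR iKO, with 1 lower and 1 higher. Their mean level per array, relative to water, was −0.70 to −0.08 on Flox DSS and −0.28 to 0.30 on GR iKO DSS arrays. Brush border genes of surface colonocytes, where most absorptive transport takes place, were lower for 5 of 9 and higher for 1 of 9 in Flox, and lower and higher for 1 each in GR iKO. Their mean level was −0.38, −0.36 and −0.55 on Flox DSS replicates 1, 2 and 4, so lowest on replicate 4, unlike the transport genes. On GR iKO DSS replicates 1, 3 and 4 it was −0.87, −0.28 and 0.25, so highest on replicate 4. Goblet cell genes (6) were at −2.19, −2.29 and 0.30 on Flox DSS replicates 1, 2 and 4, highest on replicate 4 like all 10 transport genes. They were at −1.25, 0.20 and −0.82 on GR iKO DSS replicates 1, 3 and 4. Crypt base genes, from the part of the epithelium where Cftr is mostly found, were lower for 5 of 6 in Flox (median −1.83) and 4 of 6 in GR iKO (median −1.59), and their mean level was −1.83 to −1.41 over the 6 DSS arrays against −0.13 to 0.19 on water. All 7 smooth muscle genes had positive differences in Flox, 6 of them called, and their level was 1.16 to 1.81 on Flox DSS arrays against −0.61 to 0.61 on GR iKO DSS arrays. Neutrophil genes reached 4.35 to 5.43 in Flox and 6.53 to 8.57 in GR iKO, with 6 of 7 and 7 of 7 called higher, and all 6 fibroblast genes were higher in both. Macrophage genes were higher for 5 of 8 in Flox and 7 of 8 in GR iKO, at 0.71 to 1.81 over the 6 DSS arrays. Hoxb13, a gene of the most distal hindgut, fell from 4.25 to 4.81 on Flox water arrays to −2.14, −3.07 and 1.71 on Flox DSS arrays and from 3.90 to 4.89 to 2.36, 2.46 and −0.16 in GR iKO (adjusted p = 0.000157 and 0.0157, limma). On Flox DSS it was highest on replicate 4, as were all 10 transport genes. On GR iKO DSS its levels on replicates 1 and 3 were close (2.36 and 2.46), and it was lowest on replicate 4. There, replicate 3 was the highest for 7 transport genes and replicate 1 the lowest for 6. Hoxb13 was the 1 gene called of 3 tested for distal position, whose median difference was −0.26 in Flox and −0.12 in GR iKO and whose highest was 0.46 and 0.31. Which stretch of colon each sample held was not given in the sources used here.

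When the arrays were scaled to the pan-epithelial genes, so that changes are relative to those genes and not to the 75th percentile, 4 genes were called lower in each genotype. They were Scnn1a (−1.28, adjusted p = 0.00104, limma), Scnn1g (−3.31, adjusted p = 0.0266), Atp12a (−3.02, adjusted p = 0.0152) and Cftr (−1.45, adjusted p = 0.00296) in Flox. In GR iKO they were Scnn1a (−1.31), Slc26a3 (−1.23), Aqp8 (−1.19) and Cftr (−2.21), at adjusted p values of 0.00182, 0.0358, 0.0178 and 0.000415. On that scale 7.36% of all probes were called lower in Flox and 11.1% in GR iKO.

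The genotypes were then compared directly to ask whether epithelial GR loss altered the transport genes with or without colitis. On water, none of the 10 was called (limma), where 0.0237% of all probes were, and none had an unadjusted p under 0.05, against 3.34% of all probes. Differences lay between −0.31 (Scnn1g, 95% interval −1.70 to 1.07) and 0.07 (Scnn1a, −0.31 to 0.45), and all 10 genes overlapped between the genotypes, where 2.26% of all probes did not overlap. The narrower intervals bound the difference closely: that of Cftr was −0.47 to 0.48 and that of Aqp8 −0.55 to 0.44, whereas that of Atp12a ran from −1.47 to 0.88.

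On DSS, none of the 10 was called either (limma), where 0.0203% of all probes were, none had an unadjusted p under 0.05, against 17.6% of all probes, and again all 10 overlapped, where 22.8% of all probes did not. The largest differences were in Scnn1g, at 2.60 (95% interval −0.36 to 5.56, adjusted p = 0.351), Atp12a, at 1.62 (−0.89 to 4.14, adjusted p = 0.515), Car4, at 0.76 (−0.38 to 1.90, adjusted p = 0.502) and Scnn1b, at 0.70 (−1.61 to 3.02, adjusted p = 0.794), all with the higher mean in GR iKO. Without GR iKO DSS replicate 3 the differences of Scnn1g and Atp12a were 1.22 and 0.54 and that of Scnn1b was −0.59. Aqp8 was at −0.57 (−1.63 to 0.49) and Cftr at −0.38 (−1.40 to 0.64). With 3 against 3 arrays the exact permutation test cannot go below 0.1, and the intervals of Scnn1b, Scnn1g and Atp12a were the widest. The interaction, which tests whether the response to DSS differed between the genotypes, called none of the 10 genes and 0% of all probes (4369 probes, or 14.8%, and none of the 10 genes had an unadjusted p under 0.05), with Scnn1g at 2.91 (−0.35 to 6.18, adjusted p = 0.393) and Atp12a at 1.92 (−0.86 to 4.70, adjusted p = 0.522).

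**Figure D4:**
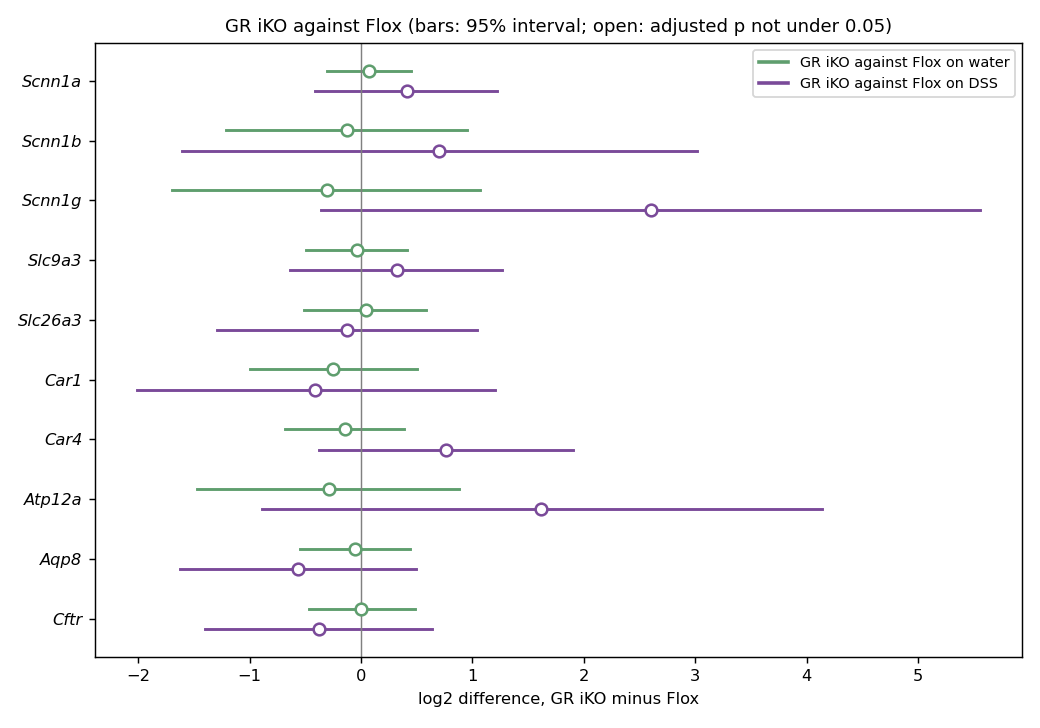
Log2 difference between GR iKO and Flox for each transport gene (x axis) on water and on DSS, with 95% intervals as bars; all points are open, as no adjusted p was under 0.05. Intervals are narrower on water than on DSS and all of them include 0.

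A wider list of 55 genes that regulate, fuel or complement these transporters, 54 of them tested, was read in the same way. In Flox 20 were lower and 7 higher on DSS (median −0.47), and in GR iKO 16 were lower and 6 higher (median −0.34), with 20 called in both genotypes, 7 in Flox alone, 2 in GR iKO alone and 25 in neither. Over all probes 25.4% were lower and 21.8% higher in Flox, and 19.7% and 19.0% in GR iKO. None was called for genotype on water, genotype on DSS or the interaction (limma). An unadjusted p under 0.05 was found for 0, 11 and 12 of the 54, where 3.34%, 17.6% and 14.8% of all probes had one.

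Among regulators of the sodium channel, the enzyme Hsd11b2, which protects the mineralocorticoid receptor from glucocorticoids, fell by 2.22 in Flox and 1.79 in GR iKO (adjusted p = 0.00113 and 0.00573, limma). Nedd4l, the ubiquitin ligase that removes the channel from the membrane, was higher on every DSS array, at 1.65, 1.53 and 1.32 in Flox and 0.79, 1.27 and 0.79 in GR iKO against −0.76 to −0.52 over all 8 water arrays, by 2.14 and 1.57 (adjusted p of 2.14e-06 and 1.46e-05), though under scaling to spike-in transcripts its Flox difference was −0.18. Prss8, a protease that activates the channel, fell by 1.51 in Flox (adjusted p = 0.00294) and differed by −0.28 in GR iKO (adjusted p = 0.537). The mineralocorticoid receptor gene Nr3c2 (−0.48 and −0.05) and the kinase gene Sgk1 (−0.56 in both) did not pass the test. Fxyd4, a regulator of the sodium pump, had the largest fall of the list, from 3.67 to 5.39 on Flox water arrays to −7.51, −4.90 and 1.35 on DSS and from 3.06 to 5.13 in GR iKO to 0.71, 1.27 and −7.58, with 2 of 3 DSS arrays above background in each genotype (log2 differences −8.00 and −5.62, adjusted p = 0.00418 and 0.0325). In all, 4 of these 11 regulators were lower and 2 higher in Flox, and 2 lower and 2 higher in GR iKO. Of all probes, 25.4% were lower and 21.8% higher in Flox, and 19.7% and 19.0% in GR iKO.

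Among exchangers and bicarbonate routes, Slc9a2, a further sodium-proton exchanger of the epithelium, fell by 1.78 in Flox and 1.47 in GR iKO (adjusted p = 0.00429 and 0.0154, limma). Slc26a2, a sulfate and chloride exchanger, fell by 1.33 in Flox (adjusted p = 0.0236) and differed by −0.75 in GR iKO (adjusted p = 0.191), and Slc26a6 did not pass in either (0.49 and 0.41). Best2, a bicarbonate channel of goblet cells, fell from 3.96 to 5.10 on Flox water arrays to −3.16, −0.55 and 3.57, and from 4.19 to 5.0 in GR iKO to −0.85, 3.57 and 0.29 (differences −4.69 and −3.69, adjusted p = 0.00449 and 0.0203), and was again highest on Flox DSS replicate 4 and GR iKO DSS replicate 3. Car2, a cytosolic carbonic anhydrase, fell by 2.05 and 1.89 (adjusted p = 0.000212 and 0.000552), unlike its relatives Car1 and Car4, though the difference between these genes was not tested.

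Genes of the basolateral machinery that drives secretion moved in both directions. Of 8 genes on this list, 5 were lower and 2 higher in Flox and 4 lower and 2 higher in GR iKO. The shares of all probes were 25.4% lower and 21.8% higher in Flox, and 19.7% and 19.0% in GR iKO. Slc12a2, the cotransporter that loads chloride for Cftr, fell by 1.63 and 1.56 (adjusted p of 2.12e-05 and 4.85e-05, limma), and Kcne3, the partner subunit of the potassium channel Kcnq1, fell by 3.50 and 2.59 (adjusted p of 3.09e-05 and 0.000378). Among signals that control secretion, the adenosine receptor gene Adora2b, above background on 2 of 4 water arrays in each genotype, rose by 3.30 and 4.61 (adjusted p = 0.000250 and 4.46e-05), the neuropeptide gene Vip by 2.33 and 2.05 (adjusted p = 0.000128 and 0.000478) and the kinase gene Prkg2 by 2.44 in Flox (adjusted p = 0.0483), with 1.44 in GR iKO (adjusted p = 0.251). The guanylin genes Guca2a (−0.04 and −0.85) and Guca2b (−0.54 and −0.30) and the water channel Aqp4 (−0.44 and 0.05) did not pass in either genotype.

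**Figure D5:**
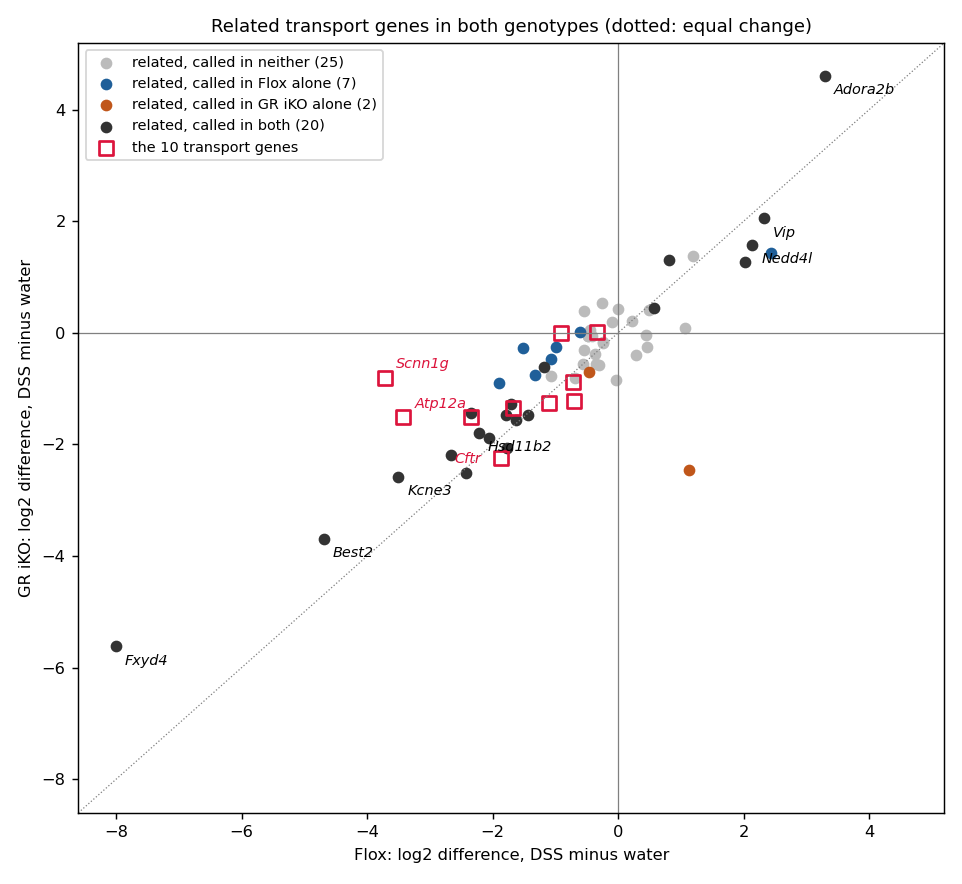
Log2 difference between DSS and water in Flox (x axis) against GR iKO (y axis) for 54 related genes, coloured by the genotypes in which they were called, and for the 10 transport genes (red squares). Most genes lie near the dotted line of equal change; Scnn1g and Atp12a lie above it.

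Genes whose level followed a transport gene most closely over the 14 arrays are given as a description, since all arrays share the DSS contrast. Over 15454 other genes, Cftr was followed by Aqp11 (r = 0.990), an intracellular water channel, and Myb (r = 0.985), a transcription factor of crypt progenitors. Scnn1a was followed by Nxpe4 (0.982) and Pdlim1 (0.980), Scnn1g by Lima1 (0.981) and Dll4 (0.950), and Scnn1b by Ephx2 (0.964) and Dll4 (0.943), so that the beta and gamma subunits shared a gene on their short lists. Slc26a3 was closest to Ube3c (0.966) and Ckmt2 (0.963), Atp12a to Cldn14 (0.963) and Prdx6b (0.957), Aqp8 to Ppp1r37 (0.954) and Fhl1 (0.950), Car4 to Nat8f4 (0.938) and Pla2g4f (0.931), Car1 to Sall4 (0.889) and Rasd2 (0.863), and Slc9a3 to Gpr50 (0.851) and Oprl1 (0.836). Among the 10 genes themselves, Scnn1b and Scnn1g were closest to each other (0.908), as were Car4 and Atp12a (0.904) and Scnn1a and Slc26a3 (0.899).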

How the data were processed

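Colon RNA of 14 mice was labelled with Cy3 and hybridised to Agilent 1-colour arrays. The authors extracted spot intensities with Feature Extraction 12.0.0.7, and the deposited scanner files hold background-corrected processed intensity on a linear scale for 45018 spots an array. The deposited value table holds log2 values (r of at least 0.998 with the scanner file of the matching array on a log2 scale, and equal quartiles throughout, so read as quantile-normalized) and was used as an alternative; its exact making and the microarray test of the study are not given in the sources used here. The submitters' processing notes also name Partek 6.6.

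Here, 1639 control spots were dropped, flagged spots were set to missing, and the spots of a probe were averaged, giving 41174 probes. Levels were log2 intensities centred on each array's 75th percentile. Tested were probes well above background on at least 3 of 14 arrays (29523 probes, 22993 of them with a gene symbol through RefSeq accessions of GRCm38.p6), and 97 tested probes had a missing value on some array. No spot was saturated. The array grid was drawn on another build, so probe coordinates are not given. Group means of all 14 arrays were fitted with limma 3.58.1 in R 4.3.3, with 1 weight for water arrays (1.70) and 1 for DSS arrays (0.49), because the spread was larger on DSS; 5 contrasts were tested two-sided, adjusted by Benjamini-Hochberg over all probes and called at 0.05. Intervals are 95%. Exact two-sided permutation tests of group means used single arrays; their smallest p is 0.0286 for 4 against 4 and 3 against 4 and 0.1 for 3 against 3. The number of arrays limits the precision of every value. The fit was tested on simulated data.

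The 10 genes, the related genes and the marker lists were chosen with earlier results of these data known. Named in the text are all 10 genes, 14 related genes fixed by name (1 of them is not reported here), up to 3 of the largest called rises and falls without overlap in a comparison, the 2 genes most like each of the 10, and Nr3c1. Hoxb13 was singled out after its values were seen. Alternatives were a single spread, quality weights per array, only the arrays compared, a trended robust fit, normexp (offset 50, on median foreground and background signals, as the files hold no mean signal), the value table, scaling to 7 spike-in probes or to pan-epithelial genes, no filter or at least 7 arrays above background, slide (4 slides) or replicate number as a block, the median over probes, and leaving out each array.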

Additional observations from a re-analysis of the deposited data

How the results depend on the processing

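The number of transport genes called on DSS was 10 in Flox under quality weights per array and 10 under spike-in scaling, against 6, and in GR iKO it was 7 under spike-in scaling and 2 with only the arrays compared, against 4. It was 2 to 8 in Flox and 2 to 4 in GR iKO with single arrays left out, where 9149 to 14770 and 8733 to 11893 of all probes were called. Of the related genes, 43 and 46 were called in Flox under quality weights and spike-in scaling, against 27. In Flox these settings called 19227 and 25251 of all 29523 probes, against 13929, and in GR iKO spike-in scaling called 12515 and only the arrays compared 8692, against 11442. For genotype on DSS, no transport gene was called under any alternative, while 5 related genes were called with a single spread, 11 with quality weights and 0 to 3 with arrays left out (3 without Flox DSS replicate 4, 2 without GR iKO DSS replicate 3), against 0. The interaction called 3 transport genes and 16 related genes under spike-in scaling and 8 related genes under quality weights, against 0. Over all probes, genotype on DSS called 3903 with a single spread and 3495 with quality weights against 6, and the interaction 33, 2065 and, under spike-in scaling, 8475 against 0. The share of called probes that were higher was 66.2% (Flox) and 60.2% (GR iKO) with normexp, 79.2% and 55.5% under pan-epithelial scaling and 0.867% and 6.11% under spike-in scaling, against 46.2% and 49.1%. Normexp moved the median of all probes to 0.22 and 0.13. The cause of these shifts was not tested. Replicate numbers do not pair the samples (correlation of deviations −0.08 to 0.31 over 4 pairs on water and −0.03 to 0.18 over 2 pairs on DSS), and with the replicate number as a block 6 and 4 transport genes were called, as without it. With slide as a block the counts were also 6 and 4.

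These signs turned. On DSS against water, Slc9a3 was 0.07 in Flox under pan-epithelial scaling, and in GR iKO −0.01 with normexp, −0.90 with spike-in scaling, −0.08 with slide, −0.08 with the replicate block and −0.05 as a median over probes. Car4 in GR iKO was 0.02 under pan-epithelial scaling, Aqp4 in GR iKO −0.88 and Nedd4l in Flox −0.18 under spike-in scaling, Slc26a6 −1.83 and −0.52 there, Guca2a in Flox 0.37 under pan-epithelial scaling, Guca2a in Flox 0.01 with slide and 0.10 with the replicate block, Guca2b in GR iKO 0.17 with quality weights, and Nr3c2 0.13 and 0.11 with normexp. For genotype on water, Scnn1a was −0.10 as a median over probes and −0.11 under spike-in scaling, Slc26a3 −0.03, −0.01 and −0.14 under quality weights, pan-epithelial and spike-in scaling, and Cftr −0.02, −0.04, −0.01, −0.04 and −0.18 under quality weights, the median over probes, the value table, pan-epithelial and spike-in scaling. For genotype on DSS and the interaction, in that order, quality weights gave 0.31 and 0.34 for Slc26a3, 0.17 and 0.45 for Car1 and 0.27 and 0.29 for Cftr. Pan-epithelial scaling gave −0.01 and −0.04 for Scnn1a and −0.10 and −0.02 for Slc9a3. Spike-in scaling gave 1.09 and 1.23 for Slc26a3, 0.81 and 1.24 for Car1, 0.64 and 0.87 for Aqp8, 0.83 and 1.01 for Cftr, and 0.38 for Nr3c1 on DSS. With single arrays left out, ranges that crossed 0 were, for DSS in GR iKO, −2.18 to 0.23 (Scnn1g), −0.20 to 0.31 (Slc9a3), −0.48 to 0.32 (Car4), −0.21 to 0.45 (Aqp4), −0.96 to 0.36 (Guca2b), −0.15 to 0.14 (Nr3c2) and −0.61 to 0.00168 (Prss8), and in Flox −0.53 to 0.34 (Guca2a). For genotype on water they were −0.11 to 0.03 (Aqp8), −0.09 to 0.08 (Cftr), −0.36 to 0.07 (Scnn1b), −0.11 to 0.17 (Slc26a3) and −0.13 to 0.14 (Slc9a3). For genotype on DSS they were −0.99 to 0.06 (Aqp8), −1.0 to 0.12 (Car1), −0.99 to 0.12 (Cftr), −0.59 to 1.42 (Scnn1b) and −0.43 to 0.35 (Slc26a3), and for the interaction −0.94 to 0.11 (Aqp8), −0.75 to 0.37 (Car1), −0.99 to 0.12 (Cftr), −0.47 to 1.55 (Scnn1b) and −0.47 to 0.31 (Slc26a3).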
